A study of Mus musculus with 2 samples.

Results

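C1q macrophages low in Spp1 and Arg1 were 503 of the 11197 barcodes kept from a droplet RNA sequencing of immune cells from mouse tumours. A kept barcode had at least 200 detected genes and at most 10% of its unique molecular identifiers (UMIs, each 1 counted transcript) from mitochondrial genes. A member held at least 3 UMIs of C1qa, C1qb and C1qc together, fewer than 10 of Spp1 and Arg1 together, at most 1 of Cd3e, Cd3d and Cd3g together, and none of Cd79a or Xcr1. The last genes mark T cells, B cells and type 1 dendritic cells. The members were thus chosen by their own counts, and their levels of these genes are given as a description.

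The study asks whether p53-deficient cancer depends on thymine DNA glycosylase (Tdg), an enzyme of base excision repair and DNA demethylation. Live CD45+ cells were sorted from subcutaneous KP tumours collected 14 days after inoculation, and 1 library was made for each of 2 genotypes. The library labelled wild type (titled KP) is called Tdg_WT and the library labelled Tdg knockout (titled KPT) is called Tdg_KO. The labels do not say whether tumour cells or host cells carried the deletion, how many mice were used or whether they were pooled. With 1 library per group there was no replicate and no test. Every interval below is a 95% interval for counting error alone, exact for the binomial share or the Poisson ratio, and says nothing about the spread between mice.

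Tdg_WT held 5604 barcodes with 39819010 UMIs and Tdg_KO 5896 barcodes with 52586319 UMIs. The members had 175 barcodes and 787705 UMIs in Tdg_WT and 328 barcodes and 1589919 UMIs in Tdg_KO. Their median depth was 3704 and 3308.5 UMIs per barcode. Levels are given as CPM, the UMIs of a gene summed over all members of a library and scaled to a common total for all UMIs of those members (counts per 1000000). The libraries shared 8 barcode sequences in all and 0 among the members.

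1 Tdg_KO barcode stood apart. It held 195160 UMIs, 12.3% of all UMIs of the Tdg_KO members, against 24168 in the next. It carried 9676 genes, 368 UMIs of C1q genes and all 10 macrophage markers, together with 1441 UMIs of Krt8 and 832 of Krt18, keratins of epithelial cells, and 4 T cell and 4 neutrophil markers. Comparisons between the libraries are therefore also given without the largest member barcode of each library, which in Tdg_WT held 21976 UMIs.

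The label was checked against 10 macrophage markers that the rule did not use (among them Csf1r, Adgre1, Cd68, Fcgr1, Mertk, Ms4a7, Apoe, Mrc1 and Lgmn). At least 3 of them were detected in 81.7% of Tdg_WT members (143 of 175) and 88.1% of Tdg_KO members (289 of 328), against 7.89% and 11.9% of the other kept barcodes, which were deeper at medians of 5451 and 6651.5 UMIs. All 3 C1q genes were detected in 86.9% and 90.2% of members. Markers of other cells were present too: 29 Tdg_WT members (16.6%) and 46 Tdg_KO members (14.0%) held at least 3 markers of T cells, natural killer (NK) cells, neutrophils or B cells, and are called mixed. Summed neutrophil markers reached 2874 CPM in Tdg_WT and 1326 CPM in Tdg_KO members, NK cell markers 835 and 1504 CPM, and T cell markers 113 and 224 CPM. B cell markers were lower at 58.4 and 80.5 CPM, with Ms4a1 and Pax5 among those at 0 in both libraries. The B cell list also holds Cd79a, which the rule set to 0. The T cell list holds Cd3e, Cd3d and Cd3g, which the rule limited, so both sums were lowered by the choice of members. Of the T cell markers Cd28 and Themis were at 0 in Tdg_WT members and none in Tdg_KO members. C1q transcripts also appeared in barcodes of other lineages: 3.73% of Tdg_WT barcodes with T cell markers and 9.87% of those in Tdg_KO held at least 3 C1q UMIs.

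The lower edge of the rule was loose. Members with only 3 or 4 C1q UMIs were 14 and 16 barcodes with a median of 2 macrophage markers in both libraries, and 50% and 18.8% of them were mixed. Just outside, barcodes with 1 or 2 C1q UMIs numbered 78 and 99, had a median of 1 macrophage marker, and were mixed in 62.8% and 56.6%. At the other edge, barcodes with 7 to 9 UMIs of Spp1 and Arg1 were set beside those with 10 to 12. There were 8 and 8 of them in Tdg_WT and 17 and 6 in Tdg_KO. Macrophage markers were near level across the cut, at medians of 5 and 5.5 in Tdg_WT and of 5 and 6 in Tdg_KO. Single genes varied on these few barcodes: Ccl8 stood at 0 and 269 CPM in Tdg_WT and 126 and 259 CPM in Tdg_KO. Gapdh stood at 5542 and 4778 CPM, and at 2683 and 4281 CPM.

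C1qa, C1qb and C1qc encode the chains of C1q, the recognition part of the first complement component. C1q binds immune complexes and dying cells, and in tissues it is made mainly by macrophages rather than by the liver, which makes most other complement proteins. Tumour macrophages are commonly described along an axis on which C1q-producing cells that present antigen and take up debris stand opposite cells rich in Spp1 (osteopontin, a secreted adhesion protein) and Arg1 (arginase 1, which degrades arginine), the latter known from hypoxic regions. Ccl8 is a chemokine of tissue macrophages that draws CCR2- and CCR8-bearing cells, depending on the species.

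In the mouse genome (mm10) C1qa (chromosome 4, 136895917 to 136898803), C1qc (136889804 to 136893065) and C1qb (136880129 to 136886187) stand side by side on the minus strand within 18.7 kb. Ccl8 (chromosome 11, 82115185 to 82116799, plus strand) lies at the end of a 71.1 kb stretch that also holds Ccl7 (82045712 to 82047525) and Ccl12 (82101845 to 82103400), 2 further chemokines of monocytes. The 250 bases before the start of C1qb and of Ccl8 are shown because the first gene defined the members and the second was seen in a minority of them. The sequences are RefSeq's for GRCm38.p6, 5′ to 3′ on the gene's strand. Capitals mark GAGGAA or its reverse complement TTCCTC, a core of the kind bound by PU.1, the master factor of myeloid cells, and TGCTGA or its reverse complement TCAGCA, a partial site of the kind bound by MAF proteins, which macrophages use.
C1qb, chr4:136886201-136886450, minus strand: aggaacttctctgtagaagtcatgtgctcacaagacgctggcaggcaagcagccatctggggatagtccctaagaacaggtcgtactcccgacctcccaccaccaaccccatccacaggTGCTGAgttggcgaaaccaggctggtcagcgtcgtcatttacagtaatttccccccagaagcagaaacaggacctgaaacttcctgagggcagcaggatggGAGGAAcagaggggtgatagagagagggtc
Ccl8, chr11:82114935-82115184, plus strand: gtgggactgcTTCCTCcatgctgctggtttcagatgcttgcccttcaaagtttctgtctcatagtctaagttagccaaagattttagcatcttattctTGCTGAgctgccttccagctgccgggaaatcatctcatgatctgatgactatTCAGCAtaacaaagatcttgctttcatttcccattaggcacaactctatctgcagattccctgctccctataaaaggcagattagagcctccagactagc
The C1qb window held the PU.1-type letters 30 bases before the start and the MAF-type letters 131 bases before it. In the Ccl8 window the PU.1-type letters stood 240 bases and the MAF-type letters 152 and 100 bases before the start. These letters are common: 7639 of 32851 windows of this length (23.3%) held the first and 5282 (16.1%) the second. They were chosen after the sequences had been read, and a match describes the letters, not binding.

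C1qa and C1qb were detected in nearly every member, C1qa in 96.0% of Tdg_WT and 97.6% of Tdg_KO members, against 4.46% and 10.4% of the other kept barcodes. C1qa stood at 3145 CPM in Tdg_WT and 3571 CPM in Tdg_KO, C1qb at 3048 and 3402 CPM, and C1qc at 1761 and 2086 CPM. The median member held 25 C1q UMIs in Tdg_WT and 36 in Tdg_KO, far above the 3 that the rule required, and 79.4% and 85.7% of members held at least 10. Spp1 and Arg1 were both at 0 UMIs in 54.9% and 64.3% of members. Apoe, a lipid carrier protein of macrophages, was among the most abundant transcripts at 12208 and 14869 CPM, and Cd74, the chaperone of MHC class II, reached 18664 and 19779 CPM. In the other kept barcodes Apoe stood at 312 and 754 CPM.

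Ccl8 was unlike the C1q genes. Only 16.6% of Tdg_WT members and 17.7% of Tdg_KO members held a Ccl8 UMI, against 1.26% and 2.31% of the other kept barcodes. After each member was thinned to 2000 UMIs, 10 of 138 Tdg_WT members (7.25%, 3.53 to 12.9%) and 31 of 259 Tdg_KO members (12%, 8.28 to 16.6%) still held one, and 37 and 69 shallower members were left out. The CPM of Ccl8 was 311 in Tdg_WT and 543 in Tdg_KO, but 1 barcode supplied 65.5% of the Tdg_KO UMIs.

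**Figure D1:**
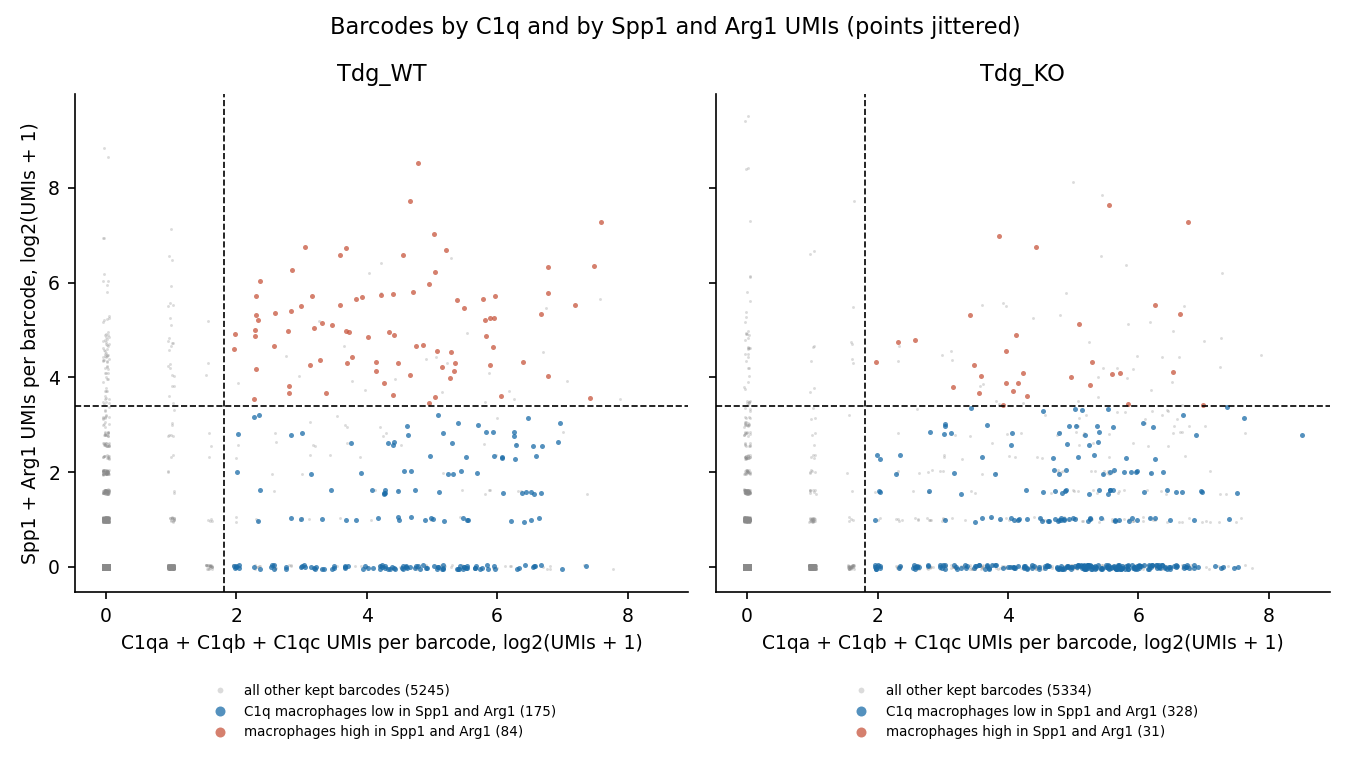
Kept barcodes of Tdg_WT (left) and Tdg_KO (right) by their C1qa, C1qb and C1qc UMIs (x axis) and their Spp1 and Arg1 UMIs (y axis), both as log2(UMIs + 1), with dashed lines at the limits of the rule. The members (blue, 175 and 328) lie mostly at 0 or 1 on the y axis, the macrophages high in Spp1 and Arg1 (red, 84 and 31) above the line, and grey points right of the vertical line failed the limits on Cd3, Cd79a or Xcr1.

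The members were a larger share of the immune cells in Tdg_KO. They made up 3.18% of kept Tdg_WT barcodes (175 of 5504, 2.73 to 3.68%) and 5.76% of kept Tdg_KO barcodes (328 of 5693, 5.17 to 6.40%), a ratio of 1.81 (1.5 to 2.19). The macrophages with 10 or more UMIs of Spp1 and Arg1, chosen by the same limits otherwise, went the other way: 84 barcodes (1.53%) in Tdg_WT and 31 (0.545%) in Tdg_KO, a ratio of 0.357 (0.228 to 0.545). Of both kinds of C1q macrophage together, the members were 67.6% in Tdg_WT (61.5 to 73.2%) and 91.4% in Tdg_KO (88.0 to 94.1%). Members with at least 3 macrophage markers were 2.60% and 5.08% of all kept barcodes, a ratio of 1.95 (1.59 to 2.4). As a share of only those kept barcodes that held at least 3 macrophage markers, a smaller denominator, the members' ratio was 1.32 (1.08 to 1.63). Members low in Malat1, described next, were 1.93-fold (1.56 to 2.41) and the other members 1.46-fold (0.988 to 2.18) as large a share of all kept barcodes in Tdg_KO. C1q UMIs were also more frequent in Tdg_KO barcodes of other lineages, as given above, and the part of this in the share was not tested. Whether the difference reflects genotype, mouse or library cannot be told apart with 1 library each.

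Most members held almost no Malat1, an abundant noncoding RNA that is retained in the nucleus (chromosome 19, 5795690 to 5802672, minus strand). Malat1 was at a median of 0.0282% of a member's UMIs in both libraries, against 1.63% and 1.5% in the other kept barcodes. It was under 0.2% in 130 of 175 Tdg_WT members (74.3%, 67.1 to 80.6%) and 260 of 328 Tdg_KO members (79.3%, 74.5 to 83.5%), against 11.4% and 6.82% of other kept barcodes. No Malat1 UMI at all was seen in 39.4% and 41.5% of members and in 5.68% and 2.89% of the others. In sum over all members Malat1 stood at 6282 and 6702 CPM. The macrophages high in Spp1 and Arg1 were much alike, with 83.3% and 77.4% under 0.2% and medians of 0.0312% and 0.0311%.

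Low Malat1 was thus common in both kinds of C1q macrophage and less so in the other barcodes. The members alone were 16.3% of all kept barcodes low in Malat1 in Tdg_WT (130 of 796) and 40.1% in Tdg_KO (260 of 648). Members were also shallower than the other kept barcodes, with medians of 3704 against 5451 UMIs and 1188 against 1757 genes in Tdg_WT, and of 3308.5 against 6651.5 UMIs and 1097.5 against 2061.5 genes in Tdg_KO. Their median mitochondrial share was 1.06% against 1.84% in Tdg_WT and 1.74% against 2.49% in Tdg_KO. The part of depth in the low Malat1 was not tested. Whether these barcodes held whole cells was not tested.

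**Figure D2:**
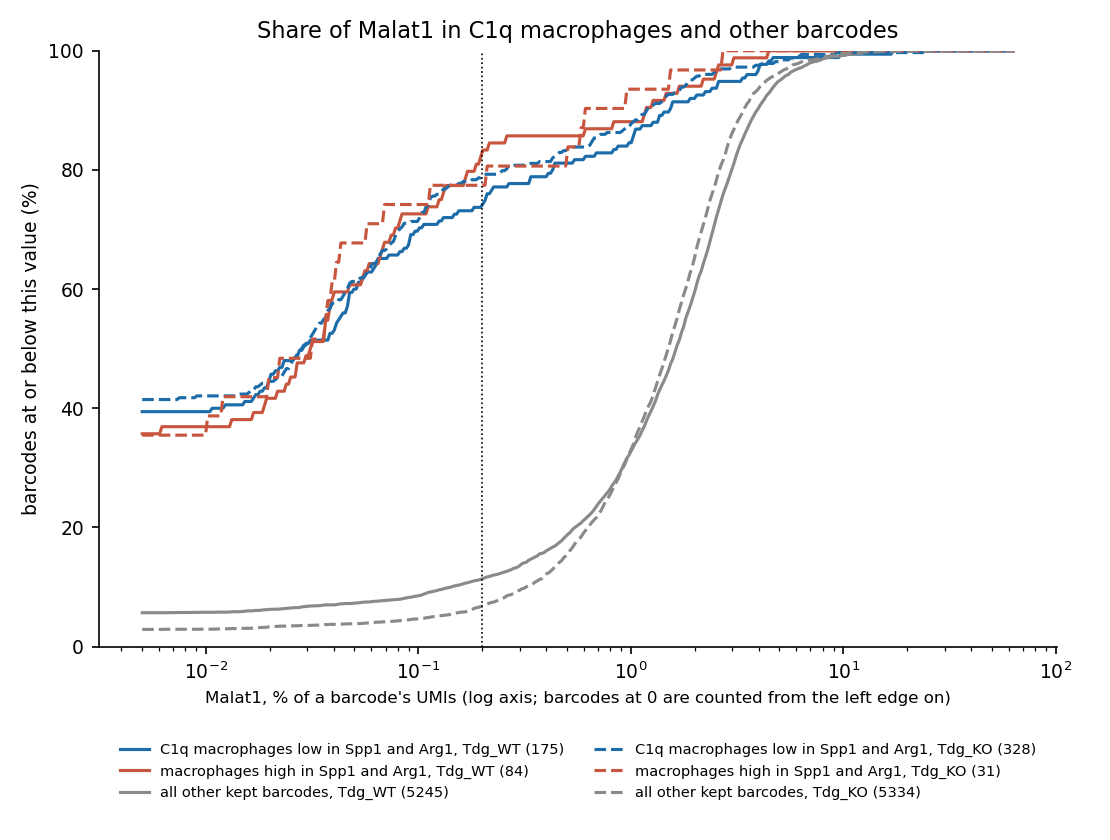
Cumulative share of barcodes (y axis, %) at or below each Malat1 share of their UMIs (x axis, %, log scale), for members (blue), macrophages high in Spp1 and Arg1 (red) and other kept barcodes (grey), Tdg_WT solid and Tdg_KO dashed. At the dotted line of 0.2% the members have reached 74.3% and 79.3%, and the other barcodes 11.4% and 6.82%.

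Members low in Malat1 differed from the other members in several gene lists, some on one side in both libraries and some split. Without the largest barcode of each library there were 130 low and 44 other members in Tdg_WT and 260 low and 67 other members in Tdg_KO. Of 1784 genes with at least 50 UMIs over both sets in each library, 181 (10.1%) were at least 1.5-fold higher in the low members in both libraries with intervals past 1, and 290 (16.3%) were lower. Counted in 1 library at a time, 16% of genes were higher and 20.9% lower in Tdg_WT, and 15.7% and 26.8% in Tdg_KO. The 2 sets also differed in purity: 9.23% and 5.77% of the low members were mixed, against 38.6% and 44.8% of the others. The low members were also shallower, at medians of 3253 against 4735.5 UMIs in Tdg_WT and 2999 against 5446 UMIs in Tdg_KO. The parts of mixed barcodes and of depth in these differences were not tested.

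Higher in the members low in Malat1 were most of the measured core macrophage genes, 8 of 14 in Tdg_WT with 1 lower and 11 of 15 in Tdg_KO with 0 lower. C1qa was 2.23-fold (2.01 to 2.48) and 2.49-fold (2.31 to 2.68) higher in members low in Malat1, at 3956 against 1773 CPM in Tdg_WT and 4885 against 1963 CPM in Tdg_KO. The rule set a minimum of raw C1q UMIs, which weighs more in shallower barcodes, so the C1qa values are a description. Apoe was 1.59-fold and 2.79-fold higher, Cd74 1.70-fold and 2.46-fold, and Spi1, which encodes PU.1, 2.45-fold and 1.87-fold. All 7 measured MHC class II genes in Tdg_WT and 7 of 8 in Tdg_KO were at least 1.5-fold higher, with 1 lower in Tdg_KO and list medians of 0.71 and 1.25 on the log2 scale. The medians over all genes were 0.13 and -0.02. Genes of oxidative phosphorylation in the nuclear genome, 15 and 17 of 30 of them at least 1.5-fold higher and 0 lower, had medians of 0.59 and 0.65.

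Lower were most genes of the stress and dissociation list, which holds early response genes with short-lived transcripts, 18 of 22 in Tdg_WT and 22 of 25 in Tdg_KO. Jun stood at 60.7 against 773 CPM in Tdg_WT and 87.3 against 858 CPM in Tdg_KO, ratios of 0.0785 and 0.102. Fos (0.172 and 0.221), Egr1 (0.125 and 0.0725) and Nfkbia, an inhibitor of NF-kB that the same pathway induces (0.115 and 0.161), were lower as well. Among the inflammatory list 9 of 9 genes were lower in Tdg_WT and 11 of 11 in Tdg_KO, with medians of -3.12 and -2.02. Il1b was nearest to level of those named here, at 2238 against 4786 CPM and 2000 against 3840 CPM. The stress and dissociation list had medians of -2.62 and -2.28. Transcription factors of macrophages, a list in which Spi1 was an exception, were lower for 17 of 21 and 14 of 23, with medians of -2.13 and -2.26. Other lists were split: chemokines had 9 higher and 9 lower of 19 in Tdg_WT and 9 and 8 of 19 in Tdg_KO, and MHC class I genes 2 higher and 6 lower of 14 and 3 and 5 of 15. Resident-type macrophage genes were at medians of -0.19 and 0.32. Neat1, another nuclear RNA, was lower together with Malat1, at 7.83 against 381 CPM and 7.36 against 392 CPM.

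**Figure D3:**
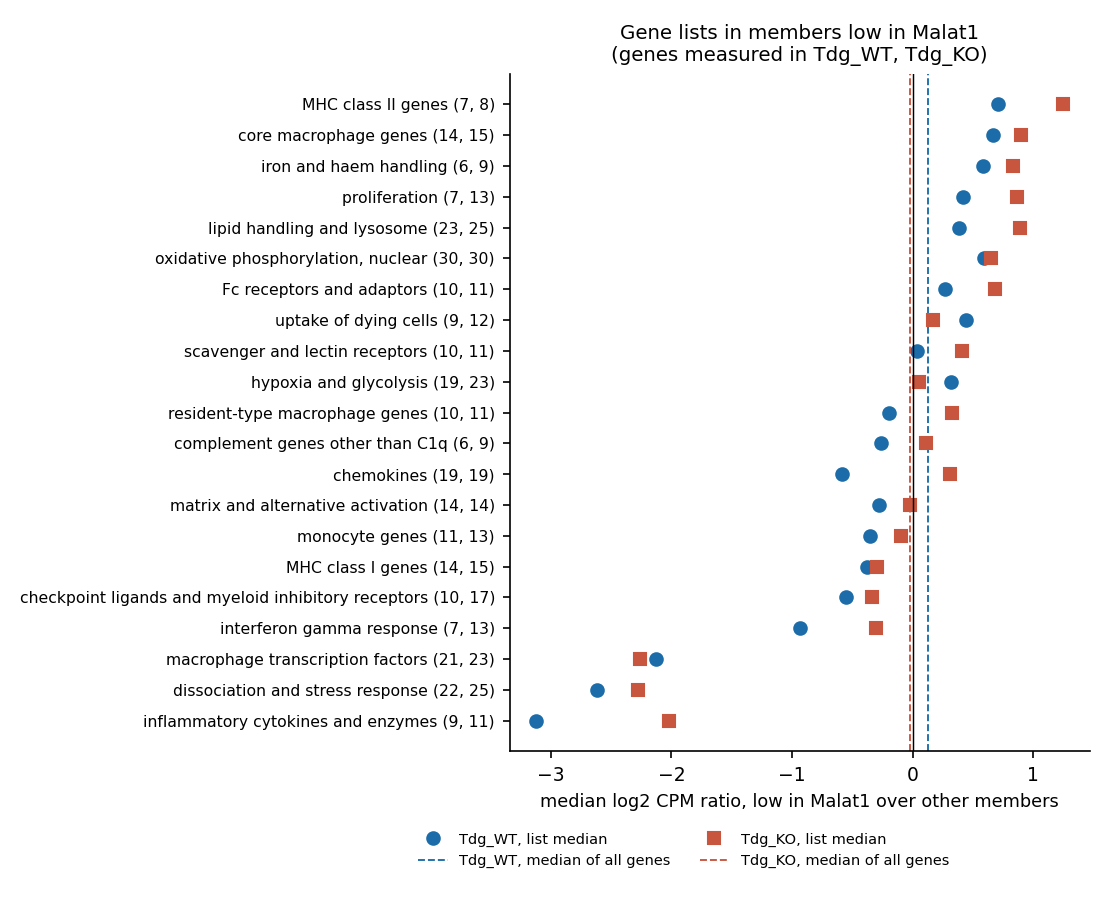
Median log2 CPM ratio of each gene list in members low in Malat1 over the other members (x axis), Tdg_WT as blue circles and Tdg_KO as red squares, without the largest barcode of each library; numbers of genes measured stand beside the names and dashed lines mark the medians over all genes. MHC class II and core macrophage genes lie to the right in both libraries, and transcription factors, stress genes and inflammatory genes lie beyond -2.

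The members were next set against the 84 and 31 macrophages high in Spp1 and Arg1 in each library. These had 458223 and 193714 UMIs, and 8.33% and 12.9% of them were mixed. They were deeper than the members, at medians of 4678 and 4689 UMIs per barcode against 3704 and 3308.5. The cut on Spp1 and Arg1 was made on raw UMIs, which deeper barcodes reach more easily. The genes of the rule were left out of the counts. In Tdg_WT, 354 of 2599 genes (13.6%) were at least 1.5-fold higher in the members with intervals past 1 and 172 (6.62%) lower. In Tdg_KO these were 519 (13.5%) and 244 (6.33%) of 3855 genes. In both libraries together 104 of 2568 genes (4.05%) were higher and 88 (3.43%) lower. Without the largest member barcode of each library these shares were 4.19% and 3.63%, and by library 12.8% and 6.55% in Tdg_WT and 11.6% and 6.76% in Tdg_KO. The medians over all genes were 0.14 and 0.16 on the log2 scale.

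MHC class II genes were higher in the members for 5 of 7 measured in both libraries. The genes H2-Ab1 and H2-Eb1 encode beta chains of the 2 class II molecules that show peptides to CD4+ T cells. H2-Ab1 stood at 8944 against 4430 CPM in Tdg_WT, 2.02-fold (1.92 to 2.12), and at 8773 against 4636 CPM in Tdg_KO, 1.89-fold (1.77 to 2.03). H2-Eb1 was 2.04-fold and 1.71-fold higher, and Cd74 1.76-fold and 1.55-fold. The 5 that passed the limit in both were H2-Ab1, H2-Eb1, H2-DMa, H2-DMb1 and Cd74, and 0 were lower. The list medians were 0.87 and 0.85, above the medians over all genes. In Tdg_KO this held among barcodes low in Malat1, with a median of 1.66, and turned among the rest, with a median of -0.86 against only 7 high macrophages. Summed type 2 dendritic cell markers were also higher in the members, 849 against 482 CPM in Tdg_WT and 821 against 387 CPM in Tdg_KO, with Mgl2 leading and Cd209a at 0 in the high macrophages of both libraries, and their part in the class II levels was not tested.

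Cst3, an inhibitor of cathepsins that is abundant in dendritic cells and macrophages, stood at 6685 against 2228 CPM in Tdg_WT and 4539 against 2302 CPM in Tdg_KO. Mgl2, a lectin of macrophages and dendritic cells, was 2.17-fold (1.8 to 2.63) and 2.28-fold (1.73 to 3.06) higher. The neighbouring genes Tmem176a and Tmem176b encode membrane channel proteins of immature antigen-presenting cells. Tmem176a was 3.28-fold and 3.36-fold higher and Tmem176b 2.19-fold and 2.91-fold. Qpct, a glutaminyl cyclase that modifies chemokines, was 2.83-fold (1.75 to 4.76) and 3.34-fold (1.66 to 7.82) higher. The phosphatase gene Dusp2 was 2.69-fold and 5.39-fold higher, but at a ratio of 0.927 in Tdg_KO among barcodes low in Malat1. Among barcodes not low in Malat1 in Tdg_KO, where 7 high macrophages remained, the ratios lay below 1 for Cst3 (0.530), Mgl2 (0.790), Qpct (0.762) and Tmem176b (0.929).

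Chemokine genes split into opposite groups. Of 20 measured in both libraries, Ccl4, Ccl7, Ccl8, Ccl12, Ccl17 and Ccl22 were higher in the members in both, and Ccl6, Ccl9, Cxcl3, Cxcl14 and Pf4 were lower. Ccl8 stood at 311 against 65.5 CPM in Tdg_WT, 4.75-fold (3.24 to 7.19). In Tdg_KO it stood at 543 against 41.3 CPM, 13.1-fold (6.64 to 30.5), and without the largest barcode of each library 5.17-fold (2.59 to 12.1). Among barcodes not low in Malat1 in Tdg_WT the ratio of Ccl8 was 0.359. Its neighbours on chromosome 11 went the same way: Ccl12 stood at 142 against 56.7 CPM in Tdg_WT, and in Tdg_KO it had 235 UMIs in the members and 0 UMIs in the high macrophages, at least 9.54-fold higher against a limit of 3 UMIs over that group. Ccl7 was 3.02-fold (2.05 to 4.59) higher in Tdg_WT and again had 0 UMIs in the Tdg_KO high macrophages, where the 136 UMIs of the members made it at least 5.52-fold higher with and 3.33-fold higher without the largest barcode. Ccl7 rested on few barcodes: 62.7% of its Tdg_WT member UMIs lay in 1 of them, and without the largest barcode and that one the Tdg_WT ratio was 1.18 (0.750 to 1.88) and the Tdg_KO bound 1.90.

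Ccl17, a ligand of CCR4 made by dendritic cells and some macrophages, stood at 815 against 183 CPM in Tdg_WT and 574 against 170 CPM in Tdg_KO. Ccl22, the other CCR4 ligand, had only 1 and 2 UMIs in the high macrophages, so its ratios of 52.9 (9.26 to 2114) and 5.12 (1.37 to 42.9) were loose. Markers of migratory dendritic cells, to which Ccl22 belongs, were at least 3 in 5.14% and 3.96% of members and in 0 of 84 and 0 of 31 high macrophages, which allows shares of up to 3.57% and 9.68%. Ccl4, a chemokine that draws T cells and monocytes, stood at 972 against 242 CPM and 761 against 129 CPM, but 1 barcode held 53% of its Tdg_WT UMIs, and without the largest barcode and the one richest in Ccl4 the ratios were 1.97 (1.59 to 2.46) and 5.73 (3.86 to 8.90). Summed NK cell markers, cells that make Ccl4, were 835 against 720 CPM in Tdg_WT and 1504 against 119 CPM in Tdg_KO, and their part in Ccl4 was not tested. On the other side Ccl6 and Ccl9, monocyte chemokines of the C-C class, were at ratios of 0.376 and 0.217, and of 0.357 and 0.233. Pf4, platelet factor 4, which some macrophages express, stood at 908 against 1888 CPM and 257 against 1213 CPM.

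Most measured genes of hypoxia and glycolysis were lower in the members. Of 26 measured in Tdg_WT 22 were lower and of 27 in Tdg_KO 20, with 0 higher in either and medians of -0.89 and -1.33. In both libraries 15 of 25 were lower. Gapdh, a glycolytic enzyme, stood at 3105 against 6135 CPM in Tdg_WT, 0.506 (0.479 to 0.535), and at 2165 against 5952 CPM in Tdg_KO, 0.364 (0.340 to 0.389). Bnip3, a mitophagy receptor induced by HIF, was at ratios of 0.267 and 0.194. Fam162a, also a HIF target, was at 0.376 and 0.274. Mif, a cytokine that HIF induces, stood at 1440 against 2656 CPM and 776 against 2726 CPM.

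Genes of iron storage, haem breakdown and metal binding were lower in part. Fth1, the heavy chain of ferritin, took 23478 CPM in Tdg_WT members against 51591 CPM, and 18965 against 59299 CPM in Tdg_KO. Hmox1, haem oxygenase 1, stood at 129 against 646 CPM and 135 against 1383 CPM. Of 8 measured iron and haem genes 4 were lower in both libraries (Hmox1, Ftl1, Fth1 and Blvrb) and none higher. The metallothioneins bind zinc and copper: Mt2 stood at 80.0 against 903 CPM and 91.8 against 1115 CPM, and Mt1 was at ratios of 0.261 and 0.199. Prdx1, a peroxidase, was at 0.434 and 0.248.

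Lipid and lysosome genes were level or lower in Tdg_WT and split in Tdg_KO. Of 23 measured in both libraries 7 were lower in the members in both (Trem2, Fabp5, Plin2, Ctsd, Ctsl, Cd9 and Lgals3) and 0 higher in both. By library, 0 were higher and 7 lower of 23 in Tdg_WT, and 3 higher and 8 lower of 26 in Tdg_KO. Without the largest member barcode of each library these were 0 and 6 in Tdg_WT and 6 and 8 in Tdg_KO. The list medians were -0.27 and 0.03. Trem2, a lipid receptor, stood at 197 against 375 CPM and 179 against 320 CPM. The macrophage elastase gene Mmp12 was at ratios of 0.310 and 0.272, standing at 1176 against 3797 CPM and 908 against 3340 CPM. Capg, an actin-capping protein, was at 0.377 and 0.227, Esd, an esterase, at 0.373 and 0.306, and Tnfrsf9, which encodes the receptor 4-1BB, at 0.336 and 0.295. Core macrophage genes differed less: of 15, Csf1r, the receptor for the macrophage growth factor, and Aif1 were higher, Lyz2 was lower and the other 12 did not pass in both libraries. Csf1r stood at 319 against 194 CPM and 353 against 212 CPM. Oxidative phosphorylation genes were level, with medians of 0.09 and -0.05. The exception of 30 was Ndufa4, higher in both libraries, with 37.6% of its Tdg_KO UMIs in 1 barcode.

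**Figure D4:**
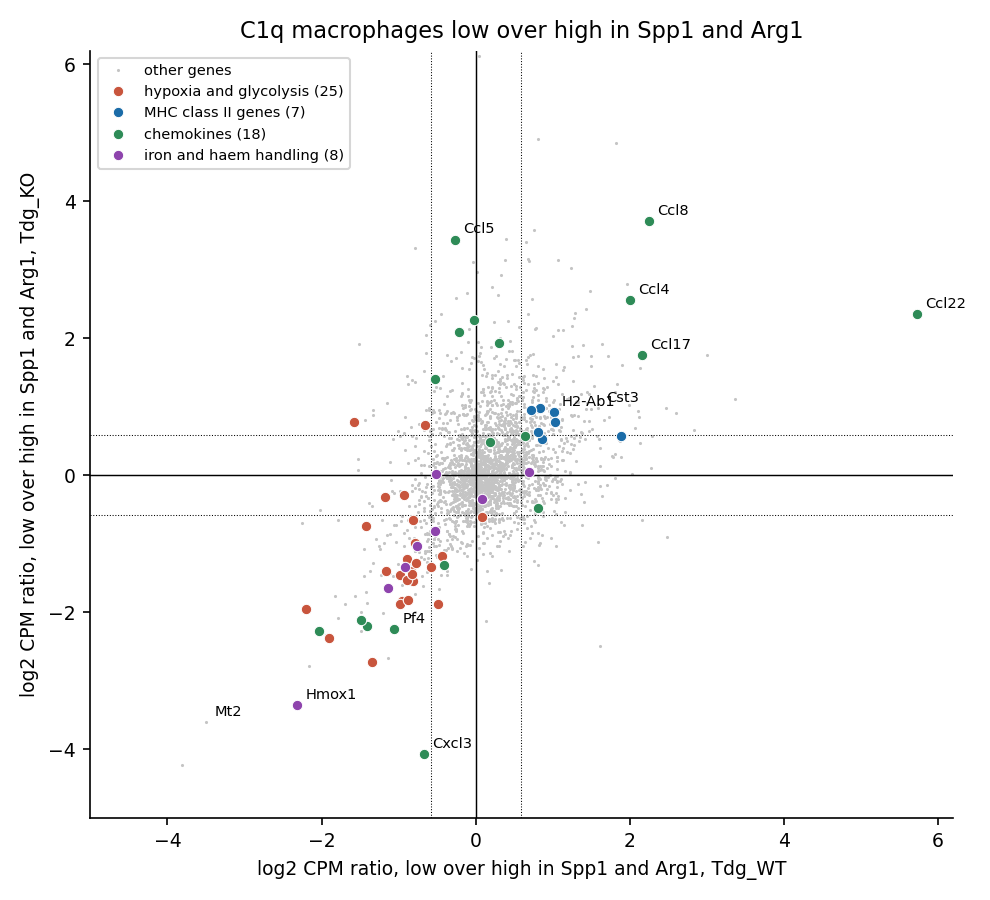
Log2 CPM ratio of members over macrophages high in Spp1 and Arg1 in Tdg_WT (x axis) and Tdg_KO (y axis), 1 point per gene with at least 50 UMIs over both sets in each library and no 0; dotted lines mark 1.5-fold. Hypoxia and iron genes gather at lower left, class II genes at upper right, and chemokines lie at both ends, with Ccl8, Ccl4, Ccl17 and Ccl22 high and Pf4 and Cxcl3 low.

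Within the members, Tdg_KO was then set against Tdg_WT. Tdg itself (chromosome 10, 82629828 to 82650799, plus strand) was sparse, with 14 UMIs in Tdg_WT members (17.8 CPM) and 24 in Tdg_KO members (15.1 CPM), a ratio of 0.849 (0.422 to 1.78). In the other kept barcodes it stood at 25.4 and 26.9 CPM. Reads of RNA 3′ ends outside a deleted part would not show a deletion, so this does not check the label, and directions below are between the library labelled Tdg_KO and the library labelled Tdg_WT.

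Of 4623 genes 531 (11.5%) were at least 1.5-fold higher in Tdg_KO members and 208 (4.5%) lower. Without the largest barcode of each library the counts were 298 (7.15%) and 178 (4.27%) of 4169. Without mixed barcodes they were 142 (4.3%) and 189 (5.73%) of 3301, and among members low in Malat1 140 (5.05%) and 96 (3.46%) of 2771. The single largest barcode carried several of the strongest ratios. Nupr1, a stress response gene, was 8.75-fold higher with it and 1.05-fold without. S100a6, a calcium-binding protein, went from 4.34 to 0.653, Vcam1, an adhesion molecule, from 3.54 to 0.654, Phlda1 from 3.81 to 0.601, and the interferon-induced GTPase genes Gbp2 and Gbp3 from 4.99 to 1.36 and from 3.85 to 1.78. Ccl8 went from 1.75 (1.51 to 2.02) to 0.668 (0.562 to 0.794). Egr1 and the chaperone gene Dnajb1 were still higher, at 2.04 and 2.75, though at 1.34 (0.762 to 2.47) and 0.974 (0.512 to 1.92) among members low in Malat1. Of the stress and dissociation list, 11 of 25 genes were higher and 0 lower with all members. Without the largest barcodes 5 of 25 were higher and 0 lower, with a median of 0.31 on the log2 scale. Without mixed barcodes 5 of 25 were higher and 1 lower, at a median of 0.19. Among members low in Malat1 5 of 21 were higher and 0 lower, at a median of 0.35. The remaining values of this comparison are without the largest barcode of each library unless said otherwise.

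The C1q genes themselves differed little. C1qa, C1qb and C1qc were 1.22-fold (1.17 to 1.28), 1.21-fold (1.15 to 1.27) and 1.28-fold (1.20 to 1.36) higher in Tdg_KO members. With all members the ratios were 1.14, 1.12 and 1.18. Since the rule set a minimum for these genes, the values are a description.

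Of the named genes, Adamdec1, H2-M2, Dnase1l3 and Mmp13 were higher in Tdg_KO members without the largest barcodes, without mixed barcodes and among members low in Malat1. Adamdec1, a metalloprotease of tissue macrophages, stood at 23.5 CPM in Tdg_WT and 108 CPM in Tdg_KO, 4.58-fold (2.80 to 7.93). Without mixed barcodes the ratio was 5.18 and among members low in Malat1 3.89. H2-M2, a nonclassical MHC class I gene, stood at 19.6 and 89.6 CPM, 4.58-fold (2.67 to 8.42), and at 4.56 and 3.94 in those subsets. Dnase1l3, a secreted DNase that digests the DNA of dying cells, stood at 18.3 and 73.1 CPM, 4-fold (2.28 to 7.57), and at 4.61 and 3.19 in those subsets. Mmp13, a collagenase, stood at 48.3 and 131 CPM, 2.72-fold (1.90 to 3.98), and at 3.07 and 2.51 in those subsets. In the macrophages high in Spp1 and Arg1 the same ratios were 1.05 (0.237 to 3.77) for Adamdec1, 1.89 (0.997 to 3.55) for H2-M2, 0.394 (0.00857 to 3.25) for Dnase1l3 and 0.827 (0.549 to 1.22) for Mmp13. Whether the ratios differed between both kinds of macrophage was not tested.

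Some more abundant macrophage genes were higher by smaller factors. Mpeg1, a pore-forming protein of phagocytes, stood at 226 and 440 CPM, 1.95-fold (1.64 to 2.32). Tmem176a was 1.8-fold (1.55 to 2.10) higher, Adgre1, which encodes F4/80, 1.70-fold (1.20 to 2.43), and Axl, a receptor for dying cells, 1.56-fold (1.24 to 1.97). Apoe stood at 12557 and 16557 CPM, 1.32-fold (1.29 to 1.35). Cfb, complement factor B of the alternative pathway, was 2.29-fold (1.74 to 3.06) higher at 83.6 and 191 CPM. The list of complement genes other than C1q was level at a median of 0.02, with 2 of 10 higher and 1 lower. Over all genes 4.27% were lower. Of 16 core macrophage genes 3 were at least 1.5-fold higher and 0 lower, where 7.15% of all genes were higher, and 5 of the 16 had ratios below 1. The list median was 0.20 on the log2 scale against 0.01 over all genes.

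Several of the named genes are known from lymphocytes. Xcl1, a chemokine of NK and T cells, stood at 103 and 508 CPM, 4.93-fold (3.90 to 6.30). Without mixed barcodes its ratio was 1.54 (0.443 to 6.71). Xcl1 is itself among the markers that make a barcode mixed, so that value depends in part on the choice of barcodes. Il2rb, the beta chain of the receptors for interleukin 2 and 15, was 3.28-fold higher, Ctla2a 3.23-fold and Ctsw, a cathepsin of cytotoxic lymphocytes, 2.64-fold, the last at 2.46 (0.792 to 10.1) without mixed barcodes. Vps37b was 2.56-fold higher and 1.14-fold without mixed barcodes. Ankrd44 (3.52) and the heat shock gene Hsph1 (3.66) kept ratios over 3 in that subset, at 3.19 and 3.76. Summed over all members, NK cell markers, of which Xcl1 is one, were 1.8-fold and T cell markers 1.98-fold higher in Tdg_KO.

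Genes that were lower in Tdg_KO members included chemokines of monocytes and neutrophils. Pf4 stood at 934 CPM in Tdg_WT and 285 CPM in Tdg_KO, 0.306 (0.270 to 0.346), and at 0.393 and 0.308 without mixed barcodes and among members low in Malat1. Ccl7 stood at 210 and 51.6 CPM, 0.246 (0.183 to 0.326), and at 0.371 (0.243 to 0.561) without the barcode of each library that held most of it. Cxcl3, which draws neutrophils, stood at 293 and 48.0 CPM, 0.164 (0.123 to 0.217). Cxcl2, of the same family, stood at 4332 and 1795 CPM, 0.414 (0.393 to 0.436), but was at 0.923 (0.830 to 1.03) among members low in Malat1. Of 20 chemokine genes 8 were lower and 1 higher, with a median of -0.34, against 6 lower and 3 higher with all members. Among resident-type macrophage genes, a list that holds Pf4, Ccl7 and Ccl8, 5 of 13 were lower and 0 higher, with a median of -0.58. With all members that list stood at -0.02 with 4 of 16 higher and 4 lower. Over all genes 7.15% were higher and 4.27% lower without the largest barcodes, and 11.5% and 4.5% with all members.

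S100a8 and S100a9, which form the calprotectin of neutrophils and monocytes, were at 0.500 and 0.482, and at 0.182 and 0.138 without mixed barcodes. Both genes are among the markers that make a barcode mixed, so the latter values depend in part on that choice. S100a8 was at 0.240 (0.211 to 0.273) without the barcode of each library that held most of it. Summed neutrophil markers, which include both genes, were 0.461-fold in Tdg_KO over all members, and their part in the chemokine ratios was not tested. The lectin receptor gene Clec4d was at 0.465, and the interferon-induced membrane protein genes Ifitm1 and Ifitm3 at 0.495 and 0.534. Emp1, an epithelial membrane protein, was at 0.113 (0.0662 to 0.185) without and 1.21 with the largest barcode. Thbs1, thrombospondin, was at 0.436 but at 1.89 (1.27 to 2.87) among members low in Malat1. Vim, vimentin, stood at 1427 and 731 CPM, 0.512 (0.469 to 0.558), and Plaur, the urokinase receptor, at 252 and 115 CPM, 0.458 (0.369 to 0.567).

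Part of the hypoxia and glycolysis genes were lower in Tdg_KO members. Of 26 genes 9 were at least 1.5-fold lower and 0 higher, where 4.27% of all genes were lower. The list had 4 ratios above 1 and a median of -0.47, against -0.48 with all members and -0.57 among those low in Malat1. Mif stood at 1454 and 855 CPM, 0.588 (0.542 to 0.639), Ldha, lactate dehydrogenase, at 777 and 484 CPM, 0.623 (0.557 to 0.697), and Pgk1, a glycolytic kinase, at 526 and 353 CPM, 0.670 (0.586 to 0.766). Bnip3 was at 0.383 (0.264 to 0.551). In the macrophages high in Spp1 and Arg1 the list median was -0.09, with 4 of 26 genes lower, 1 higher and 16 ratios below 1. Mif was there at 1.03 (0.925 to 1.14), Ldha at 1.04 (0.889 to 1.22) and Pgk1 at 1.12 (0.95 to 1.31). In those macrophages 89 of 1424 genes (6.25%) were higher and 89 (6.25%) lower in Tdg_KO. The difference between both kinds of macrophage was not tested. Arg1, limited by the rule, stood at 245 and 144 CPM over all members, and Spp1 at 93.9 and 91.2 CPM.

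The count of interferon gamma response genes that were higher depended on the largest barcode. With all members 14 of 21 were higher, with a median of 0.83. Without that barcode 3 of 16 were, with a median of 0.37, and without mixed barcodes 1 of 11, with a median of 0.19. Over all genes 11.5%, 7.15% and 4.3% were higher in these 3 settings. Iigp1, an interferon-induced GTPase, had 276 UMIs in Tdg_KO members, of which 88.8% lay in 1 barcode. Cxcl9, a chemokine that interferon gamma induces, was 1.23-fold (1.08 to 1.4) higher at 448 and 550 CPM. MHC class II genes were level, with 0 of 9 higher, 1 lower and a median of 0.12, where 4.27% of all genes were lower. Oxidative phosphorylation genes were level too, with 0 of 30 past 1.5-fold either way.

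**Figure D5:**
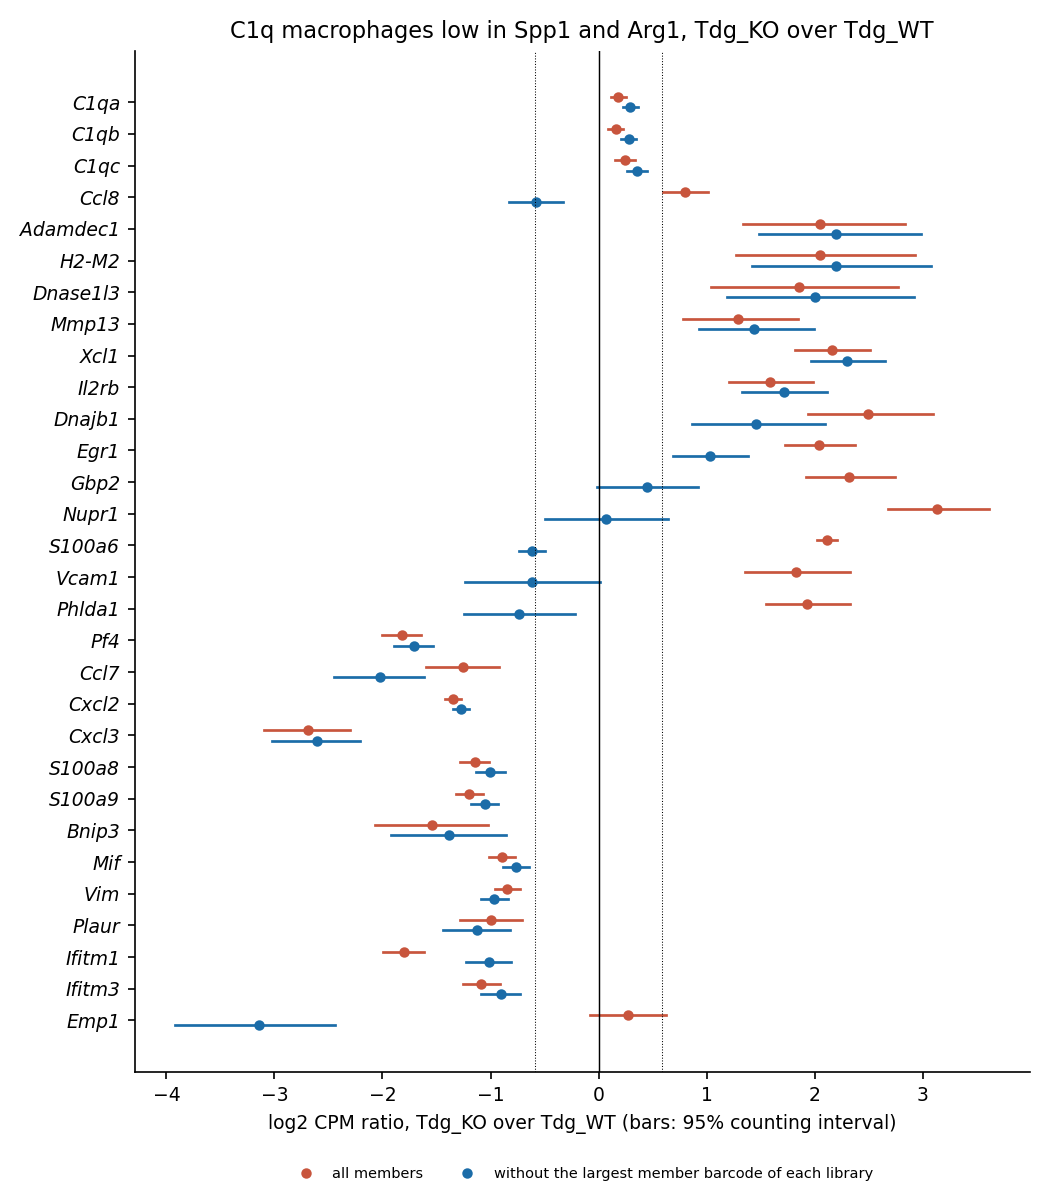
Log2 CPM ratio of Tdg_KO over Tdg_WT members for named genes (x axis; bars are 95% counting intervals), with all members in red and without the largest barcode of each library in blue; dotted lines mark 1.5-fold. Adamdec1, H2-M2, Dnase1l3 and Mmp13 stay right and Pf4, Ccl7, Cxcl2 and Cxcl3 stay left in both, while S100a6, Vcam1, Phlda1, Ccl8 and Emp1 change sides with 1 barcode.

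Ccl8 also separated members from each other. Without the largest barcode of each library, 29 Tdg_WT and 57 Tdg_KO members held a Ccl8 UMI. They were shallower, at medians of 2057 and 2584 UMIs against 4252 and 3457, and 34.5% and 17.5% of them were mixed against 13.1% and 13%. Of 1784 genes only 18 (1.01%) were higher and 18 (1.01%) lower in both libraries. In Tdg_WT alone 4.75% were higher and 8.45% lower, and in Tdg_KO alone 4.91% and 5.24%. Of the resident-type list, counted with Ccl8 itself, 8 of 10 were higher and 2 lower in Tdg_WT and 5 of 11 higher and 0 lower in Tdg_KO. The split itself fixed Ccl8 as higher, so its place in these counts is no finding. Pf4 was 4.74-fold (4.05 to 5.55) higher with than without Ccl8 in Tdg_WT and 6.59-fold (5.38 to 8.07) in Tdg_KO. Selenop, the plasma selenium carrier, was 3.96-fold (2.89 to 5.37) and 2.70-fold (2.17 to 3.35) higher, and Apoe 2.26-fold and 1.8-fold. Ms4a7, a marker of macrophages against monocytes, was 2.76-fold and 2.92-fold higher, and Fcgrt, the neonatal Fc receptor, 4.89-fold and 2.54-fold.

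Rarer genes of the same kind rested on few UMIs. Folr2, a folate receptor of resident macrophages, had 9 UMIs in all Tdg_WT members and 52 in all Tdg_KO members, and was 31.3-fold (5.95 to 308) and 18.1-fold (7.02 to 55.2) higher with Ccl8. Gas6, the ligand of Axl and Mertk, was 20.8-fold (7.52 to 66.2) and 24.5-fold (5.07 to 233) higher. Cbr2, a carbonyl reductase, and Fcna, a ficolin, had ratios of about the same size with intervals as wide. Timd4, Vsig4 and Lyve1, markers of resident macrophages in several tissues, were nearly absent, with 2, 3 and 5 UMIs in all Tdg_WT members and 2, 1 and 17 in all Tdg_KO members. The neutrophil gene S100a8 went in opposite directions, at 9.85 (8.66 to 11.2) in Tdg_WT and 0.452 (0.347 to 0.581) in Tdg_KO. Of the summed neutrophil marker UMIs of all members, 1 barcode held 21.6% in Tdg_WT and 1 held 54.3% in Tdg_KO. The part of single barcodes in these 2 ratios was not tested.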

How the data were processed

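Raw UMI counts per gene and barcode, made with Cell Ranger 6.0.1 per the file headers, were used as deposited. The submitters' processing notes also name Seurat and mm10, without their roles. Entries sharing a symbol were summed to 32245 symbols. Members were taken by the rule in the text, with 25 gene lists and 17 marker lists, of which 4 genes were not found. The members and lists were chosen with earlier results of these data known. UMIs were summed per library and set, and CPM ratios had exact conditional Poisson intervals. Genes needed 50 UMIs over the sets compared, and a call needed 1.5-fold and an interval excluding 1. Shares had exact Clopper-Pearson intervals. UMIs of 1 library are not replicates, so all intervals cover counting error only.

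Named genes between libraries had at least 50 UMIs and were detected in at least 10% of members of the higher library, and the 12 each way whose interval bound nearest 1 was farthest from it were taken, with all members and again without the largest barcodes. Between members and high macrophages, the 12 each way on the same side in both libraries were ranked by the smaller such bound. Left out were gene models without a name, genes of ribosomes, mitochondria, antigen receptors, haemoglobins and sex chromosomes and, in the second case, genes of the rule. Tdg, Malat1, the genes of the rule and Ccl8 were always named. The rule also took the most abundant and most extreme genes of each list described, of which part are given. Other genes were chosen after their values were seen. Some genes are not reported here. No doublet caller was run, and mixed barcodes were counted instead. Positions came from GENCODE's mm10 annotation and promoters from RefSeq GRCm38.p6. Alternatives changed the limits of the rule, left out mixed or low Malat1 barcodes, thinned barcodes to 2000 UMIs or weighted them equally. Calculations, tested on simulated data, used Python 3.11.15, numpy 2.4.6, scipy 1.17.1, pandas 2.3.3 and matplotlib 3.10.9.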

Additional observations from a re-analysis of the deposited data

Results flagged for a closer look

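For 7 of the listed and named genes the libraries disagreed on which macrophages were higher, with ratios past 1.5-fold and counting intervals past 1 on opposite sides. The values are ratios of members over macrophages high in Spp1 and Arg1, without the largest member barcode of each library. The difference between the libraries was not tested, since each holds 1 sample. C3ar1, the receptor for the complement fragment C3a, was at 0.598 in Tdg_WT and 2.78 in Tdg_KO. Klf2, a transcription factor of quiescent cells, was at 0.361 and 3.49, and the co-chaperone gene Dnaja1 at 0.526 and 1.79. The inflammasome sensor gene Nlrp3 was at 1.74 and 0.550, and Il1a, interleukin 1 alpha, at 2.03 and 0.600. The mitotic genes Birc5 and Ube2c were at 1.74 and 0.478, and at 3.14 and 0.204.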

How the results depend on the processing

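No paired analysis was possible because the labels carry no replicate numbers and each group is 1 library. Leaving out the largest barcode, keeping only barcodes low in Malat1, keeping only those with 3 macrophage markers and leaving out epithelial barcodes were chosen after seeing the data. So were the shares of one kind of member among all kept barcodes, and leaving out the barcode that held most of a gene. The ratio of member shares, 1.81, was 1.46 counting only members not low in Malat1 among all kept barcodes. Where the denominator was restricted as well, it was 1.41 without barcodes low in Malat1, 2.46 with only those and 1.32 with at least 3 macrophage markers. The 531 genes higher in Tdg_KO became 230 with Spp1 and Arg1 under 3 UMIs, 142 without mixed barcodes, 85 after thinning, 298 without the barcode of most UMIs, 859 from 20 UMIs, 140 with only low Malat1 and 280 without epithelial barcodes. The 208 lower genes became 84 after thinning, 434 with equal weight and 96 with only low Malat1. Against the high macrophages, the 104 higher genes became 19 without low Malat1, 39 after thinning and 291 with equal weight, and the 88 lower genes 37 without low Malat1 and 47 after thinning. The interferon gamma median of 0.83 was 0.19 without mixed barcodes and 0.19 with equal weight. The class II median in Tdg_KO of 0.85 was -0.86 without low Malat1 and 1.66 with only low Malat1.

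Ratios of Tdg_KO over Tdg_WT that changed side were as follows, apart from the setting that left out the deepest barcodes of each library. With Spp1 and Arg1 under 3 they were Arg1 1.03, Ccl8 0.749, Malat1 0.952, Neat1 0.936, Nupr1 0.990, Phlda1 0.550, S100a6 0.535 and Vcam1 0.776. Without mixed barcodes they were Ccl8 0.818, Malat1 0.932, Nupr1 0.891, Phlda1 0.382, S100a6 0.536 and Vcam1 0.806. Without low Malat1 they were C1qa 0.983, C1qb 0.859 and Malat1 0.930. After thinning they were Ccl8 0.557, Neat1 0.866, Phlda1 0.592, S100a6 0.753 and Vcam1 0.673. Without the barcode of most UMIs they were Ccl8 0.668, Neat1 0.984, Phlda1 0.601, S100a6 0.653 and Vcam1 0.654. With equal weight they were Ccl8 0.500, Egr1 0.932, Malat1 0.810, Phlda1 0.545, S100a6 0.629 and Vcam1 0.683. With only low Malat1 they were Ccl8 0.619, Dnajb1 0.974, Neat1 0.941, S100a6 0.576, Thbs1 1.89 and Vcam1 0.868. Without epithelial barcodes they were Ccl8 0.695, Malat1 0.922, Neat1 0.911, Phlda1 0.626, S100a6 0.656 and Vcam1 0.667.

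Ratios of members over high macrophages that changed side were, with at least 10 C1q UMIs, Malat1 0.968 in Tdg_WT. Without low Malat1 they were Ccl12 0.652 and Ccl8 0.359 in Tdg_WT, and in Tdg_KO Ccl17 0.513, Cst3 0.530, H2-Ab1 0.552, H2-Eb1 0.467, Mgl2 0.790, Qpct 0.762 and Tmem176b 0.929. With only low Malat1 they were Dusp2 0.927 in Tdg_KO and Malat1 0.818 in Tdg_WT. The cause was not tested. Without low Malat1, Tdg_KO had 7 high macrophages. Among values of single genes and some list medians, 956 moved little, 407 moved and 62 changed side. Of these 62, 5 came from leaving out the deepest barcodes of each library and are not named here. Depth limits the sparse genes: Tdg, Folr2, Gas6 and Ccl22 rest on few UMIs, and no interval covers differences between mice.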

Other observations

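Some gene groups were not described above. Proliferation genes were at a median log2 ratio of -0.23 in Tdg_KO over Tdg_WT members, with 0 of 16 higher and 1 lower, all members counted. In the macrophages high in Spp1 and Arg1 the same list was at 0.67, with 5 of 6 measured genes of 22 listed higher, where 6.25% of all genes were higher, and the Tdg_KO group held 31 barcodes. MHC class I genes were higher in the members than in the high macrophages in both libraries for 4 of 14, namely H2-K1, H2-Q6, H2-T23 and the peptide transporter gene Tap1, and 0 were lower, where 4.05% of all genes were higher.

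Members with Ccl8 UMIs also differed from the rest in chemokines, without the largest barcode of each library. Ccl12, the neighbour of Ccl8, was 3.01-fold (1.89 to 4.68) higher with Ccl8 in Tdg_WT and at a ratio of 1.12 (0.777 to 1.58) in Tdg_KO. Ccl7 was 1.72-fold (1.08 to 2.63) and 2.89-fold (1.71 to 4.80) higher. Mgl2, by contrast, was at 0.387 (0.237 to 0.598) and 0.716 (0.585 to 0.871).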
